A study of Mus musculus with 19 samples.

Results

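Astrocytes of the mouse medial amygdala were described here from 5807 of the 20679 cells (28.1%) in a deposited single-cell table. A cell was included when the class in its deposited name was the authors' astrocyte class and when it was absent from the separately deposited neuron table. Of 5932 cells of that class, 125 also stood in the neuron table and were left out. The cells came from Drop-seq, in which single cells are caught in droplets with barcoded beads and each captured transcript is counted once through a unique molecular identifier (UMI). In total 10652352 UMIs were counted in astrocytes, and the median astrocyte held 1341 UMIs from 826 genes.

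The tissue came from male C57BL/6J mice, and the 16 libraries of this table were dissociated by Act-Seq, a protocol that blocks transcription while the tissue is taken apart. Untreated naive mice of 8 weeks gave 6 libraries. Mice after seizure gave 2 libraries, at 9 weeks for seizure 1 and 8 weeks for seizure 2. Acute immobilization stress gave 4 libraries, at 9 weeks for immobilization 2 and 3 and at 8 weeks for 1 and 4. Exposure to odors also gave 4 libraries, at 9 weeks for odor 1 and 2 and at 8 weeks for 3 and 4. A saline-injected Act-Seq library and a pair of conventionally dissociated libraries (saline and seizure) were deposited in another table and are described last. The seizure agent, the odors and the time between stimulus and dissection are not stated in the labels, and no label states whether libraries of a group came from different animals. The p-values therefore measure the spread between libraries, which may be technical.

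Astrocytes take up glutamate and potassium released by neurons, make glutamine, are coupled by gap junctions, and line blood vessels with endfeet rich in water channels. They carry receptors for transmitters and hormones, among them the glucocorticoid receptor, which binds the stress hormone corticosterone and switches target genes on directly. Immediate early genes are those transcribed within minutes of a stimulus without new protein, many of them through the transcription factors CREB and SRF. Hes5, Sox2 and Sox9 are transcription factors of neural progenitors that astrocytes keep expressing, Hes5 as a target of Notch receptors.

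The label matched the markers. Gja1, the gap junction protein connexin 43, had a median of 4193 UMIs per 1000000 astrocyte UMIs of a library (CPM) over the 15 libraries with at least 10 astrocytes, against at most 180 CPM in any other glial or vascular class. Agt, the precursor of angiotensin, stood at 3342 CPM against at most 123, and Aqp4, the water channel of endfeet, at 2069 against at most 65.3. F3 (tissue factor) and Gjb6 (connexin 30) stood at 1517 and 1453 CPM, against at most 140 and 90.9 in those classes. In the tests against naive libraries described below, both passed as higher after immobilization, and Gjb6 also after odor. The summed CPM of these 5 markers ranged from 11711 to 13896 in astrocyte libraries, from 1576 to 3292 in cells of the neuron table and from 2762 to 3403 in neuron-class cells outside it. Classes were made by the authors from these same counts, so differences between classes are a description.

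Other transcripts set astrocytes apart to different degrees. The most abundant were Apoe, a lipid carrier, with a median of 28450 CPM, Malat1, a nuclear RNA, with 21964 CPM, and Cst3, a protease inhibitor, with 20849 CPM. Drop-seq captures transcripts by their tail, so these CPM are not divided by gene length. Of 1910 genes at 100 CPM or more, 259 were at least 2-fold higher than in every other glial or vascular class, but 139 were so when both sets of neuron-class cells were counted too. The glutamate transporters illustrate the gap. Slc1a2 stood at 5920 CPM in astrocytes, at no more than 520 CPM in other glia and vessels, and at 4824 CPM in neuron-class cells outside the neuron table. Aldoc, a glycolytic enzyme used as an astrocyte marker, was at 5123 CPM in astrocytes and at 5505 CPM in those neuron-class cells.

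The genes with the highest ratio of astrocytes to the next class were Myoc, a secreted glycoprotein (292 against 3.79 CPM), Gm9925 (164 against 7.13), F3 (1517 against 186) and the Wnt receptor Fzd2 (406 against 57.9). Lfng, a glycosyltransferase that modifies Notch receptors (493 against 71.4 CPM), Lcat, which esterifies cholesterol (333 against 61.6), and Slc7a10, a serine and glycine transporter (730 against 151), followed among the 20 highest.

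**Figure D1:**
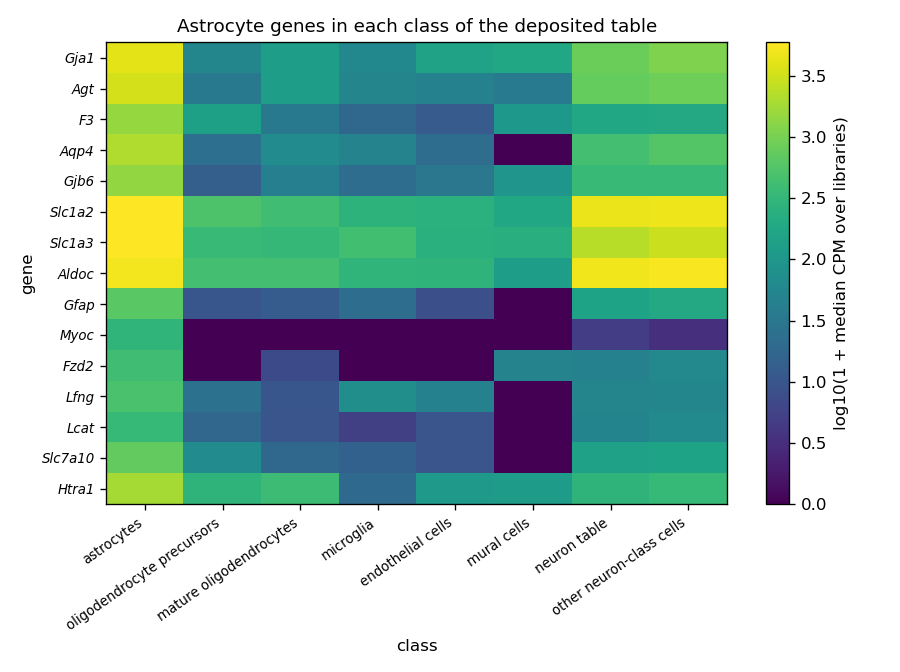
Heat map of the median level over libraries, on the scale log10(1 + CPM), of 15 astrocyte genes (rows) in the 8 cell classes of the deposited table (columns). Gja1, Agt and F3 are bright in astrocytes and dark in the other glia and vessels, Slc1a2 and Aldoc are about as bright in the neuron columns, and Myoc is near 0 outside astrocytes.

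The tested libraries held 50 (immobilization 4) to 557 astrocytes (immobilization 2) and 74620 to 1286558 astrocyte UMIs, and naive 6, with 7 astrocytes, entered no test of gene levels. No astrocyte barcode occurred in more than 1 library. The astrocyte share of a library was 29.1% ± 8.01 (SD) over 6 naive libraries and 26.0% ± 3.01 over the 2 seizure libraries, a difference with an exact permutation p of 0.571. Over 4 immobilization libraries the share was 29.0% ± 3.77 and over 4 odor libraries 28.2% ± 1.498, with exact permutation p of 0.981 and 0.810. These tests were two-sided and doubled the smaller tail, so 2 seizure libraries against 6 naive ones could not give a p under 0.05. The permutation p adjusted over the 3 comparisons was 0.981 for each, and no change in share was detected. UMIs per astrocyte, as the median of each library, averaged 1456 in naive, 1329 in seizure, 1377 in immobilization and 1196 in odor libraries, with exact permutation p adjusted to 0.556, 0.556 and 0.429. There too, 2 seizure libraries could not give a p under 0.05. Summed markers of other types were low in astrocyte libraries: neuron markers at 233 to 573 CPM, oligodendrocyte markers at 474 to 1405, microglia markers at 161 to 387, and endothelial markers at 9.25 to 115. Ependymal markers reached 716 CPM in naive 1 and 98.6 to 349 CPM elsewhere.

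The first comparison asked which astrocyte genes differed after seizure. Fos, Egr1, Nr4a1 and Junb, 4 of 11 immediate early transcription factors, rose, as did 5 of 15 early effector and feedback genes, whereas 1 of these 15, Ier5, fell. Dio2, which makes active thyroid hormone, and 8 of 20 genes responsive to glucocorticoids also rose, and Hes5 fell. Dusp1 counts in both the effector and the glucocorticoid list. The lists were chosen with earlier results of these data known, so their counts and medians are descriptions here and below. Of 10520 genes tested, 49 passed an adjusted p of 0.05 (0.466%, edgeR's quasi-likelihood test with Benjamini-Hochberg adjustment), 40 higher (0.38%) and 9 lower (0.0856%). For each of these 49 genes the seizure libraries lay outside the naive range, which held for 10% of all genes tested. In such sums, fewer cells with a transcript and less transcript per cell cannot be told apart. Shares of cells are added for some genes, but a share at a fixed depth also follows the mean level and does not separate them. Leaving out any 1 library kept 16 of the calls, 15 of them rises.

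Fos, a subunit of the AP-1 transcription factor (chromosome 12, 85473890 to 85477273, plus strand, GRCm38), was at 14.7, 20.3, 17.8, 24.1 and 11.3 CPM in naive 1 to 5 and at 377 and 400 CPM in seizure 1 and 2. The groups did not overlap, and both seizure libraries lay far above every naive one. The log2 fold change was 4.42 (SE 0.25, adjusted p 4.94e-18). With every cell reduced to 600 UMIs, 14.6% to 15.9% of astrocytes held a Fos UMI after seizure and 0.333% to 1.55% in naive libraries (26.1% to 32.5% and 1.98% to 3.74% before reduction). In microglia the reduced share was at most 1.39% after seizure, at median depths of 1329 UMIs in seizure astrocytes and 1046 in seizure microglia.

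Egr1, a zinc finger factor, was at 4.21, 5.42, 7.12, 3.70 and 5.64 CPM in naive 1 to 5 and at 217 and 169 CPM after seizure. Its log2 fold change of 5.18 (SE 0.30, adjusted p 4.94e-18) was the largest of any gene detected in naive astrocytes and past the threshold. Nr4a1, an orphan nuclear receptor, reached 80.0 and 54.8 CPM after seizure against at most 7.40 in naive libraries (log2 4.53, SE 0.47). Junb, a partner of Fos, reached 57.8 and 87.7 CPM against at most 10.8 (log2 3.62, SE 0.43). These 4 were the members past the threshold among 11 immediate early transcription factors tested, none of which fell, and the median log2 of the 11 was 1.57 against -0.01 over all genes.

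Feedback genes rose with them. Dusp1, a phosphatase that switches off MAP kinases, was at 57.8 and 53.4 CPM after seizure and at 0 to 10.5 CPM in naive libraries (log2 2.99, SE 0.39). Zfp36, which destabilizes messenger RNAs, was at 52.2 and 39.7 CPM against 0 to 7.36 (log2 2.91, SE 0.46). Cyr61, a secreted matrix protein, was at 231 and 237 CPM against 22.6 to 74.5 (log2 2.48, SE 0.22). In the list of early effectors and kinase feedback genes 5 of 15 tested members rose and 1, Ier5, fell, with a median log2 of 0.72. The fall of Ier5 (log2 -1.50) was lost without naive 2, seizure 1 or seizure 2 (adjusted p up to 0.885).

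Arl4d, which encodes an ARF-like small GTPase (chromosome 11, 101665541 to 101667832, plus strand), had no UMI in any naive astrocyte library, among 3248596 UMIs. It had 29 and 30 UMIs in seizure 1 and 2, which put it at least 39.2-fold higher than the limit of 3 UMIs over the naive group. Dio2, the deiodinase that converts thyroxine to its active form, was at 86.3, 107, 93.8, 48.1 and 73.3 CPM in naive 1 to 5 and at 310 and 373 CPM after seizure (log2 2.02, SE 0.18). Txnip, an inhibitor of thioredoxin and of glucose uptake, rose from a mean of 17.2 to 93.9 CPM (log2 2.34, SE 0.26). Neither Arl4d, Dio2 nor Txnip overlapped between the groups, and all 3 stayed past the threshold without any 1 library.

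The start regions of several of these genes are shown because the genes rose after seizure and because CREB binds the cyclic AMP response element. After immobilization, described below, Arl4d and Dio2 rose while Fos, Nr4a1 and Junb did not pass the threshold. The sequences are RefSeq windows of GRCm38.p6 that run 5′ to 3′ on the gene's strand from 250 bases before to 50 bases after the RefSeq start. Capitals mark TGACGTCA, the full element, or its core TGACG on either strand, written CGTCA where it lies on the other strand. Fos (chr12:85473640-85473939, plus), Nr4a1 (chr15:101266596-101266895, plus) and Junb (chr8:84978699-84978998, minus) are the immediate early factors shown. Egr1, which also passed the threshold, is not among the windows shown or described. Arl4d (chr11:101665291-101665590, plus) and Dio2 (chr12:90738989-90739288, minus, a RefSeq start upstream of the GENCODE gene at 90724552 to 90738438) were added after their matches were seen.
Fos: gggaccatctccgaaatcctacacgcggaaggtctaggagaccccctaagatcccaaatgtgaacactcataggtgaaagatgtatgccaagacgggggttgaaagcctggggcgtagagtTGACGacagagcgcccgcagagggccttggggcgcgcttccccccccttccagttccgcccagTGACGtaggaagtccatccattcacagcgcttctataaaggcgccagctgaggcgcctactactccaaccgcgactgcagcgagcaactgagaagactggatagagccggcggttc
Nr4a1: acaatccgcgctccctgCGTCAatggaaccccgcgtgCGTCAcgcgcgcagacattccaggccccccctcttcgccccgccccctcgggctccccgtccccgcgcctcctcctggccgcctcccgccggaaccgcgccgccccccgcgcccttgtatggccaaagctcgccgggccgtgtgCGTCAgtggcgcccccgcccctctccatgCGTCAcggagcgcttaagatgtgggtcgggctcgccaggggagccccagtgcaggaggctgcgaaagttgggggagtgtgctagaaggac
Junb: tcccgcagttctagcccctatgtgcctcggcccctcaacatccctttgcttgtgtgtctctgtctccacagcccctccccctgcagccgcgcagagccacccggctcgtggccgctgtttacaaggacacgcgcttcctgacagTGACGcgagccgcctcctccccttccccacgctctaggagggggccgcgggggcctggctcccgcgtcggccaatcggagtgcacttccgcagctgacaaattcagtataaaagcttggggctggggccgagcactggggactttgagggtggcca
Arl4d: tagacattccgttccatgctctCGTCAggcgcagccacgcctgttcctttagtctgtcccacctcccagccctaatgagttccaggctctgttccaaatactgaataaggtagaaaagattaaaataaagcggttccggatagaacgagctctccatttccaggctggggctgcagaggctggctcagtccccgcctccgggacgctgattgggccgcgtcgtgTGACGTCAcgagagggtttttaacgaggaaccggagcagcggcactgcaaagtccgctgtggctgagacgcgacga
Dio2: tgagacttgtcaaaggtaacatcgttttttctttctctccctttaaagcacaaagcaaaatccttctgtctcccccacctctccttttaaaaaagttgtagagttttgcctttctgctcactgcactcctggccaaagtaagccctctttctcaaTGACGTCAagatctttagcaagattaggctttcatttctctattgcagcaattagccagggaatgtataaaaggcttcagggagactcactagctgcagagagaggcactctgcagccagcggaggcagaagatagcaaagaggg
The Fos window held 2 cores, with first bases 129 and 66 bases before the start, Nr4a1 held 4 and Junb held 1. The full element stood 26 bases before the Arl4d start, where a further core lay 228 bases before it, and 95 bases before the Dio2 start. Among 32851 RefSeq windows of the same length, 1.79% held the full element and 20.8% held the core, counting cores within a full element. The CArG box bound by SRF (1.63% of windows) and the glucocorticoid response element (0.475%) were searched on both strands too, and no match was found in the 5 windows or in those of Nfkbia, Cdkn1a and Tsc22d3. Sites further than 250 bases before a start were not searched, so these genes may hold such elements elsewhere. A match of letters is a description and does not show that a factor binds there.

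**Figure D2:**
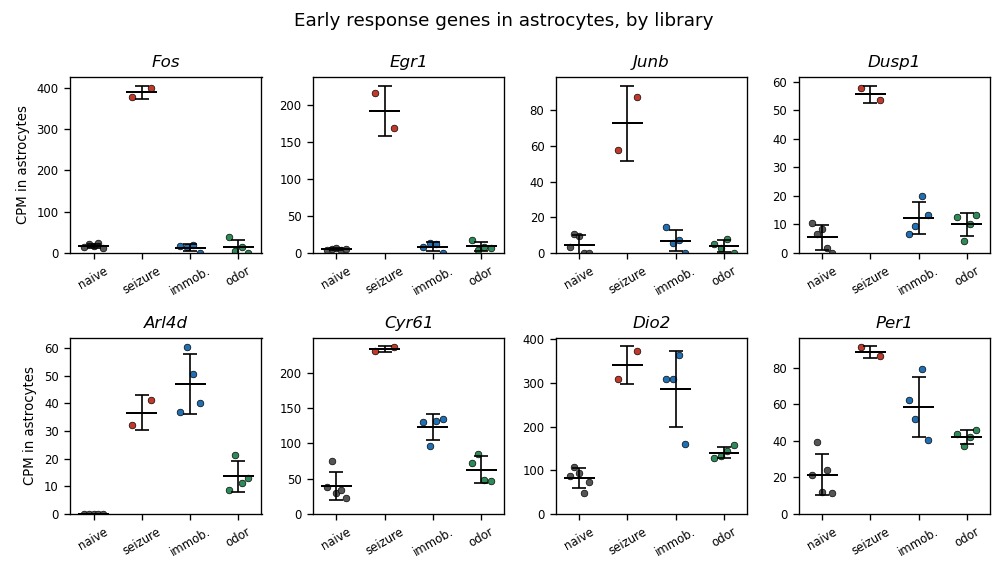
CPM in astrocytes (vertical axis, linear from 0) of 8 early response genes in each library by group ("immob." is immobilization), with the mean as a bar and the SD as whiskers. The 2 seizure libraries stand alone for Fos, Egr1, Junb and Dusp1, whereas for Arl4d, Cyr61 and Dio2 the immobilization libraries are also above the naive ones.

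Glucocorticoid responsive genes were higher as well after seizure. Of 20 tested members 8 rose and none fell (median log2 0.91, against -0.01 over all genes). Among the 8 is Dusp1, already counted above with the early effector and feedback genes. Nfkbia, an inhibitor of NF-kappaB, was at 120, 217, 97.3, 130 and 90.2 CPM in naive 1 to 5 and at 404 and 393 CPM after seizure (log2 1.57, SE 0.19). Per1, a clock gene that is also switched on by corticosterone, was at 91.1 and 86.3 CPM after seizure, against 11.3 to 39.3 CPM in naive libraries (log2 1.97, SE 0.26). Cdkn1a, an inhibitor of cell cycle kinases, was at 58.9 and 64.4 CPM against 0 to 21.0 (log2 2.26, SE 0.37), although DESeq2 did not call it (adjusted p 0.117). Tsc22d3, a mediator of glucocorticoid action, differed within the group, at 652 CPM in seizure 1 and 1238 in seizure 2, against 213 to 576 CPM in naive libraries. Its rise (log2 1.53, SE 0.21, adjusted p 1.77e-06 by edgeR) missed the threshold without seizure 2 (log2 0.99, adjusted p 0.0754).

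Hes5, the transcriptional repressor downstream of Notch (chromosome 4, 154960923 to 154962371, plus strand), was at 1034, 847, 738, 898 and 699 CPM in naive 1 to 5. After seizure it was at 374 and 244 CPM, below every naive library (log2 -1.44, SE 0.18, adjusted p 6.23e-07 by edgeR). At 600 UMIs per cell 11.3% to 20.04% of astrocytes held a Hes5 UMI after seizure and 35.5% to 41.6% in naive libraries (26.2% to 35.8% and 55.9% to 66.0% before reduction). In naive microglia that share was at most 5.71% at a median depth of 1226 UMIs, against 1478 in naive astrocytes. Hes5 was the only 1 of 11 Notch and progenitor genes past the threshold after seizure, and the other 8 falls among all genes were each lost without at least 1 library.

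No member passed in several groups of astrocyte genes after seizure. This held for 9 genes of glutamate and GABA handling, 23 of cholesterol and lipids, 19 of glycolysis and lactate, 10 heat shock genes, 16 receptors and 15 genes of reactive astrocytes by edgeR, and DESeq2 called 0 in each as well. At an unadjusted p under 0.05 the edgeR counts were 2, 2, 1, 0, 1 and 3. Gfap, the intermediate filament used as a sign of reactive astrocytes, averaged 831 CPM after seizure and 594 CPM in naive libraries (adjusted p 0.455).

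The second comparison asked which astrocyte genes differed after immobilization. Of 20 glucocorticoid responsive genes 14 rose, Dio2, Arl4d, Cyr61 and the lipid transporter Mfsd2a rose too, and 4 of 11 Notch and progenitor genes fell. In all 159 of 10520 genes passed (1.51%), 107 higher (1.02%) and 52 lower (0.494%), and 61 of these calls were kept without any 1 library. For 84 of the called genes (0.798% of those tested) the immobilization and naive libraries did not overlap, which held for 3.1% of all genes. None of the glucocorticoid responsive genes fell by edgeR, and their median log2 was 1.00, against -0.02 over all genes. This list too was chosen with earlier results known.

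Fkbp5, a cochaperone that dampens the glucocorticoid receptor, was at 3.16, 9.49, 4.75, 3.70 and 0 CPM in naive 1 to 5. In immobilization 1 to 4 it was at 44.7, 70.0, 75.5 and 40.2 CPM, with no overlap (log2 3.61, SE 0.38, adjusted p 2.60e-09 by edgeR). Tsc22d3 was at 1280, 1468, 1490 and 1018 CPM in the same libraries, all above the highest naive library at 576 CPM (log2 2.02, SE 0.18). Nfkbia was at 490, 480, 511 and 536 CPM, a narrow range above the naive maximum of 217 CPM (log2 1.87, SE 0.16). Cdkn1a was at 85.4, 137, 139 and 40.2 CPM against at most 21.0 (log2 3.16, SE 0.30).

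Per1 (log2 1.45, SE 0.24), Sult1a1, a sulfotransferase (1.33, SE 0.20), Ddit4, an inhibitor of mTOR (0.76, SE 0.13), and the metal-binding Mt1 and Mt2 (0.58, SE 0.11, and 0.91, SE 0.15) rose too, and each kept its call without any 1 library. Klf9, a factor induced by both glucocorticoid and thyroid hormone, rose by a log2 of 0.66 (SE 0.14), a call lost without immobilization 2 (0.55, adjusted p 0.0848). Glul, which makes glutamine from glutamate, rose from 3122 to 4524 CPM on average (log2 0.52, SE 0.10). It was the only 1 of 9 genes of glutamate and GABA handling past the threshold.

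**Figure D3:**
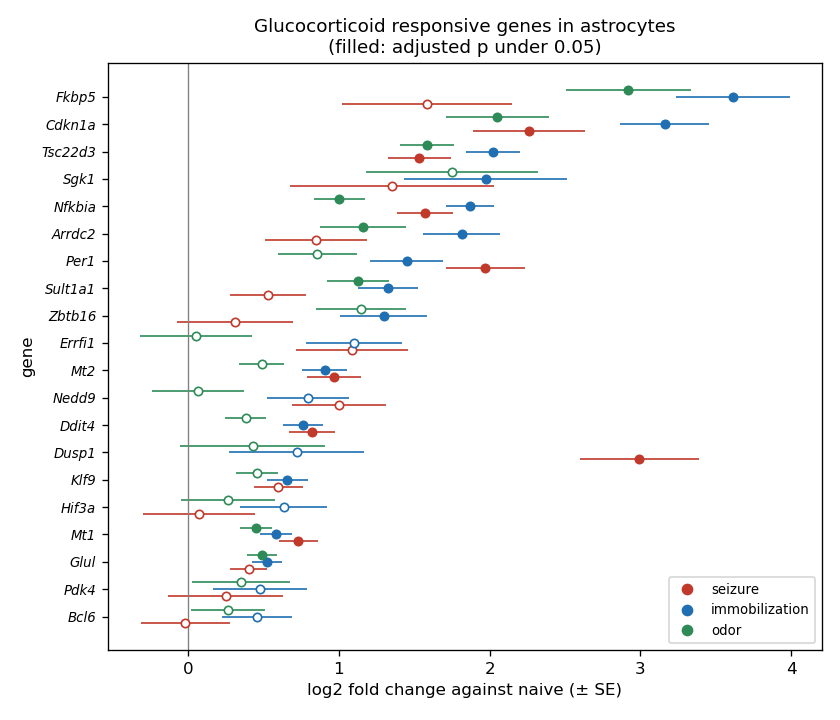
Log2 fold change against naive astrocytes (horizontal axis, points with SE) of the 20 tested glucocorticoid responsive genes (rows) after seizure, immobilization and odor, with filled points for an adjusted p under 0.05. The fold of Fkbp5, Cdkn1a and Tsc22d3 is furthest right after immobilization, and Dusp1 is filled after seizure and open after the other stimuli.

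Of 7 thyroid hormone genes 3 rose after immobilization. Dio2 was at 309, 309, 365 and 161 CPM in immobilization 1 to 4, each above the naive maximum of 107 (log2 1.88, SE 0.16, adjusted p 9.32e-12 by edgeR). Hr, a corepressor of the thyroid hormone receptor and itself a target of the hormone, was at 38.8, 59.9, 31.0 and 13.4 CPM against 0 to 10.8 (log2 2.47, SE 0.33). The third was Klf9. At 600 UMIs per cell a Dio2 UMI was found in 16% to 18.6% of astrocytes after immobilization and in 2.33% to 5.38% in naive libraries (18.0% to 34.7% and 7.00% to 12.9% before reduction). In microglia after immobilization the reduced share was at most 1.19%, with median depths of 1301 UMIs in astrocytes and 1146 in microglia.

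Arl4d was at 36.9, 60.6, 50.8 and 40.2 CPM in immobilization 1 to 4, at least 54.2-fold above the naive limit. Cyr61 was at 131, 96.4, 131 and 134 CPM, all above the naive maximum of 74.5 (log2 1.49, SE 0.21). Fos was at 15.5, 13.2, 19.8 and 0 CPM, within or below the naive range. None of the 11 immediate early transcription factors passed by edgeR or DESeq2, 5 of them at an unadjusted edgeR p under 0.05. Mfsd2a, which carries lysophosphatidylcholine with omega-3 fatty acids, was at 388, 420, 422 and 174 CPM against 70.3 to 167 CPM (log2 1.73, SE 0.20), the only 1 of 23 cholesterol and lipid genes past the threshold.

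Progenitor factors fell. Hes5 was at 468, 341, 446 and 402 CPM after immobilization, below every naive library (log2 -1.04, SE 0.14, adjusted p 2.73e-06 by edgeR). Sox2 was at 405, 390, 316 and 375 CPM against 522 to 757 CPM in naive libraries (log2 -0.80, SE 0.12). Sox9 was at 554, 625, 558 and 563 CPM against 755 to 1010 CPM (log2 -0.58, SE 0.11). With Jag1, a Notch ligand (log2 -1.48, SE 0.31), 4 of 11 Notch and progenitor genes fell and none rose, but Jag1 missed the threshold without immobilization 2 (log2 -1.32, adjusted p 0.0590). Ier5, an early gene, also fell, from 33.7 to 67.7 CPM in naive libraries to 9.33 to 17.3 CPM (log2 -1.70, SE 0.29).

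Genes that mark other cells were also past the threshold after immobilization. Tmem212 and Ccdc153, genes of ciliated ependymal cells, fell by 5.02 and 4.13 on the log2 scale. Tmem212 was at 141 CPM in naive 1 and 0 in naive 2 to 5. Without naive 1 the log2 values turned to 2.61 (adjusted p 0.795) and 1.72 (adjusted p 0.839), and Dynlrb2, of the same list, went from -2.09 to -0.85 (adjusted p 0.667). The 3 falls were also lost without immobilization 1, 2 or 3 (adjusted p up to 0.271), those of Ccdc153 and Dynlrb2 without immobilization 4, and that of Ccdc153 without odor 4. Ependymal markers summed to 716 CPM in naive 1 and at most 226 CPM in the other naive libraries, and their part in these falls was not tested. Gad2, an enzyme of GABA neurons, rose by a log2 of 1.07, but missed the threshold without cells that held 5 or more UMIs of another type's markers (0.77, adjusted p 0.617) and without naive 2, 4 or 5 or immobilization 1, 2 or 3 (adjusted p up to 0.374). The summed neuron markers were at 452 to 483 CPM after immobilization and at 233 to 573 CPM in naive libraries, and their part in the Gad2 result was not tested. Mobp, a myelin protein gene of oligodendrocytes, rose by a log2 of 0.75 (adjusted p 0.0426 by edgeR), and missed the threshold without naive 3, 4 or 5, immobilization 1 or 3 or odor 3 (adjusted p up to 0.431) and without cells that held other markers (0.72, adjusted p 0.329).

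**Figure D4:**
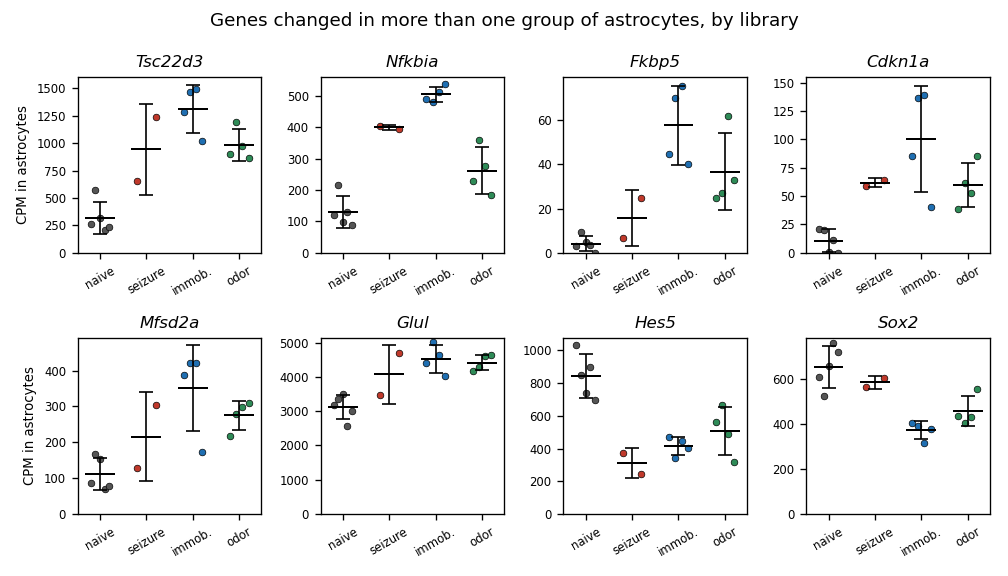
CPM in astrocytes (vertical axis, linear from 0) in each library by group ("immob." is immobilization), with mean and SD, of 6 genes that rose and 2 that fell after more than 1 stimulus or after immobilization and odor. Immobilization libraries are the highest for Nfkbia, and for Hes5 all stimulated libraries lie below the lowest naive library at 699 CPM.

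The third comparison set odor exposure against naive mice, sharing the naive libraries with the 2 before it. Per the labels the odor libraries served to define cell types and were not part of the study's own comparison of early genes. Glucocorticoid responsive genes, Hr and Mfsd2a were higher and Fabp7, Hes5, Cspg5 and Ier5 lower, with smaller folds for most. Of 10520 genes 69 passed (0.656%), 49 higher (0.466%) and 20 lower (0.19%), and 26 kept their call without any 1 library. The odor and naive libraries did not overlap for 2.82% of all genes. Of the 20 glucocorticoid responsive genes 8 rose and none fell (median log2 0.49, against -0.01 over all genes), and of 11 immediate early factors none passed by edgeR or DESeq2, 2 of them at an unadjusted edgeR p under 0.05.

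Fkbp5 was at 24.97, 27.1, 62.0 and 32.9 CPM in odor 1 to 4, above every naive library (log2 2.92, SE 0.41, adjusted p 2.24e-05 by edgeR). Tsc22d3 was at 898, 1193, 978 and 868 CPM (log2 1.59, SE 0.18), likewise without overlap. Nfkbia was at 227, 358, 276 and 184 CPM, so that odor 4 lay below naive 2 at 217 CPM (log2 1.00, SE 0.17). Hr was at 47.4, 38.5, 66.4 and 39.4 CPM against at most 10.8 in naive libraries (log2 2.69, SE 0.33). Mfsd2a rose to a mean of 276 CPM (log2 1.21, SE 0.21).

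Arl4d was at 8.74, 21.4, 11.1 and 13.1 CPM after odor, at least 14.4-fold above the naive limit. Dio2 was at 127, 132, 145 and 158 CPM, above every naive library (log2 0.70, SE 0.17, adjusted p 0.0384 by edgeR), but missed the threshold in 9 of 15 fits with 1 library left out. These 9 were the fits without naive 1, 4 or 5, immobilization 1 or 2, or any odor library, and the highest adjusted p was 0.213, without odor 3. Glul rose by a log2 of 0.49 (SE 0.10), a call lost without naive 4 (0.43, adjusted p 0.0505).

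Fabp7, a fatty acid binding protein of progenitors and young astrocytes, was at 481, 486, 433 and 447 CPM after odor. Naive libraries ranged from 592 to 2284 CPM, so the groups did not overlap while naive libraries differed widely among themselves (log2 -1.53, SE 0.26). DESeq2 did not call Fabp7 (adjusted p 0.0828). Hes5 was at 559, 667, 488 and 316 CPM (log2 -0.69, SE 0.14), and Cspg5, a membrane proteoglycan, at 621, 571, 620 and 625 CPM against 795 to 1094 (log2 -0.57, SE 0.12). Sox2 (log2 -0.55), Sox9 (-0.48) and Jag1 (-1.52) passed as well, and with Hes5 made 4 of 11 Notch and progenitor genes. Sox2 was lost without naive 4 or odor 1, 2 or 3 (adjusted p up to 0.0883), Sox9 without naive 4 or 5 or odor 1, 2 or 3 (up to 0.152), and Jag1 without odor 1 or 2 (up to 0.0661).

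Markers of other cells moved with odor as well. Gad2 was at 62.4, 38.5, 64.2 and 39.4 CPM in odor 1 to 4, above the naive range of 8.13 to 30.9 (log2 1.37, SE 0.28). This call was lost without odor 3 (1.24, adjusted p 0.0809) and without cells that held other markers (0.93, adjusted p 0.548). Mobp was at 191, 151, 155 and 105 CPM against 42.6 to 101 CPM in naive 1 to 5, without overlap (log2 1.09, SE 0.20). Its call was kept without any 1 library, but lost with the cells of the neuron table included (0.90, adjusted p 0.0594). Summed oligodendrocyte markers were at 868 to 1405 CPM after odor and at 474 to 1137 CPM in naive libraries, and microglia markers at 272 to 387 and 183 to 356 CPM. The part of these cells in the results after odor was not tested.

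The stimuli were then compared with each other. Between seizure and immobilization 29 of 10520 genes differed (0.276%), 24 higher after seizure (0.228%) and 5 lower (0.0475%). Of 11 immediate early factors 8 were higher after seizure, with Fos at a log2 of 4.66 (SE 0.27), Egr1 at 4.14 (SE 0.27), Nr4a1 at 3.12 (SE 0.42) and Junb at 3.03 (SE 0.42). Btg2, an antiproliferative early gene, was higher by 2.07 (SE 0.32), and 6 calls, those 5 and Zfp36l2, were kept without any 1 library. Fkbp5 was lower after seizure by a log2 of -2.03 (SE 0.39, adjusted p 0.00479 by edgeR), which was lost without seizure 1 (-1.30, adjusted p 0.983) and without immobilization 2 (-1.92, adjusted p 0.0547).

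Between immobilization and odor 3 genes differed (0.0285%), and each was higher after immobilization. Dio2 differed by a log2 of 1.18 (SE 0.16, adjusted p 3.43e-05 by edgeR) and kept its call without any 1 library. Arl4d differed by 1.87 (SE 0.31), which was lost without immobilization 2, odor 1 or odor 3 (adjusted p up to 0.110). Nfkbia differed by 0.87 (SE 0.16), which was lost without immobilization 2 or 3 or odor 1, 3 or 4 (adjusted p up to 0.190). Between seizure and odor 35 genes differed (0.333%), 30 of them higher after seizure (0.285%) and 5 lower (0.0475%), with Fos at 4.42 (SE 0.27), Id1, a BMP target, at 1.64 (SE 0.20) and Dio2 at 1.33 (SE 0.18).

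Whether astrocytes differed from other glia in their response was tested by the interaction of class and group, with both classes taken from the same libraries. Against oligodendrocyte precursors, of which there were 822 cells, edgeR called 0 of 7460 genes after seizure (0.0%) and after immobilization (0.0%), with 350 and 358 at an unadjusted p under 0.05, and 1, Ccdc163, after odor (0.0134%). DESeq2 called 0 in each of these 3. No simulation was run for the precursors, so the size of difference that could be missed was not measured. The lack of calls therefore does not show that precursors and astrocytes changed alike. Ccdc163 rested on uneven precursor libraries, at 0 to 1049 CPM after odor (mean 272, SD 518), and could not be tested without immobilization 1 or without odor 3. Against the 2041 mature oligodendrocytes 8 of 10070 genes passed after seizure (0.0794%), 6 with a change higher in astrocytes (0.0596%) and 2 lower (0.0199%). None of these 8 was kept in every edgeR fit with 1 library left out, where 2 to 11 genes passed, the lowest without seizure 2, and DESeq2 called 0, with 458 at an unadjusted edgeR p under 0.05. After immobilization 26 passed (0.258%), 8 higher (0.0794%) and 18 lower (0.179%), and after odor 11 (0.109%), 4 higher (0.0397%) and 7 lower (0.0695%). Without any 1 library 6 of the 26 and 5 of the 11 were kept. Tsc22d3 averaged 320, 945, 1314 and 984 CPM in naive, seizure, immobilization and odor astrocytes and 173, 178, 215 and 242 CPM in mature oligodendrocytes. Between astrocytes and mature oligodendrocytes, the log2 difference in the Tsc22d3 change was 1.72 after immobilization (SE 0.23, adjusted p 2.49e-10 by edgeR). It was 1.21 after odor (SE 0.23), though DESeq2 did not call that value (adjusted p 0.276), and both were kept without any 1 library. After seizure it was 1.58, which was lost without seizure 2 (1.12, adjusted p 0.989) and by DESeq2 (adjusted p 0.248).

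Rhob, a small GTPase of the endosome, averaged 122 CPM in naive and 364 CPM in immobilization astrocytes, against 570 and 476 CPM in mature oligodendrocytes (interaction log2 1.90, adjusted p 1.09e-15 by edgeR). Phactr3, a regulator of protein phosphatase 1, was the reverse. It averaged 246 to 266 CPM in all 4 groups of astrocytes but went from 236 CPM in naive to 1095 CPM in immobilization oligodendrocytes (interaction log2 -2.14, adjusted p 4.06e-19 by edgeR). Both were kept without any 1 library.

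Within astrocytes, the spread between cells of a library was described in 13 libraries with at least 100 astrocytes, each cell reduced to 600 UMIs. The variance to mean ratio, which is 1 for pure counting noise, had a median of 1.13 over 982 genes and was above 1.5 for 34 and above 2 for 10. The highest were Malat1 (6.71), Myoc (4.67), Cst3 (3.94) and Gfap (3.67), followed by Apoe, Dbi, Vim, Mt1, Aqp4 and Id3. Of the 15 highest genes 13 were also among the 15 highest at 1000 UMIs. Across cells Myoc and Gfap had a median correlation of 0.55 over 13 libraries, Gfap and Vim, both intermediate filaments, 0.57, and Myoc and Cst3 -0.30. These correlations are a description over cells that share a library and a fixed depth.

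Cells with a Myoc UMI made up 3.78% to 7.78% of the reduced astrocytes in these 13 libraries. The split by Myoc was chosen after its spread was seen, and it carries no test. Levels are medians over the libraries of the summed level in each set. Gfap was at 5397 CPM in cells with Myoc and 287 CPM without, Vim at 1771 and 51.1, and Igfbp5, which binds insulin-like growth factors, at 1984 and 154 CPM. Aebp1, Cd59a and Cidea were at 965, 635 and 893 CPM with Myoc and at 12.7, 6.23 and 19.8 CPM without. In the other direction Mfge8, a bridging molecule of phagocytosis, was at 128 CPM with Myoc and 2545 without, the glutamate receptor subunit Gria2 at 104 and 1984, and the GABA transporter Slc6a11 at 198 and 1254. Each of these differences had the same direction in all 13 libraries. The genes named are among the most extreme ratios over these same libraries, so a shared direction carries no separate weight. The level of Myoc over all astrocytes of a library ranged from 80.4 to 590 CPM, and the ranges of the 4 groups overlapped.

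The 2 sets also differed in the level of response genes. After seizure Fos was at 1536 CPM in cells with Myoc (59 UMIs) and at 276 CPM without, and in naive libraries at 127 (7 UMIs) and 10.7 CPM. Egr1 was at 1224 CPM with Myoc after seizure (47 UMIs) and at 108 CPM without. Dio2 was low in cells with Myoc in every group, with 0, 3, 2 and 2 UMIs in naive, seizure, immobilization and odor, against 86.3, 360, 402 and 161 CPM without. Hes5 likewise was at 54.3 CPM with Myoc (3 UMIs) and 1004 CPM without in naive libraries. Tsc22d3 was at 145, 625, 967 and 696 CPM with Myoc (8, 24, 58 and 33 UMIs) and at 413, 1045, 1584 and 1132 CPM without. Stimulated groups were thus above naive in both sets, although the naive value with Myoc rested on few UMIs.

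**Figure D5:**
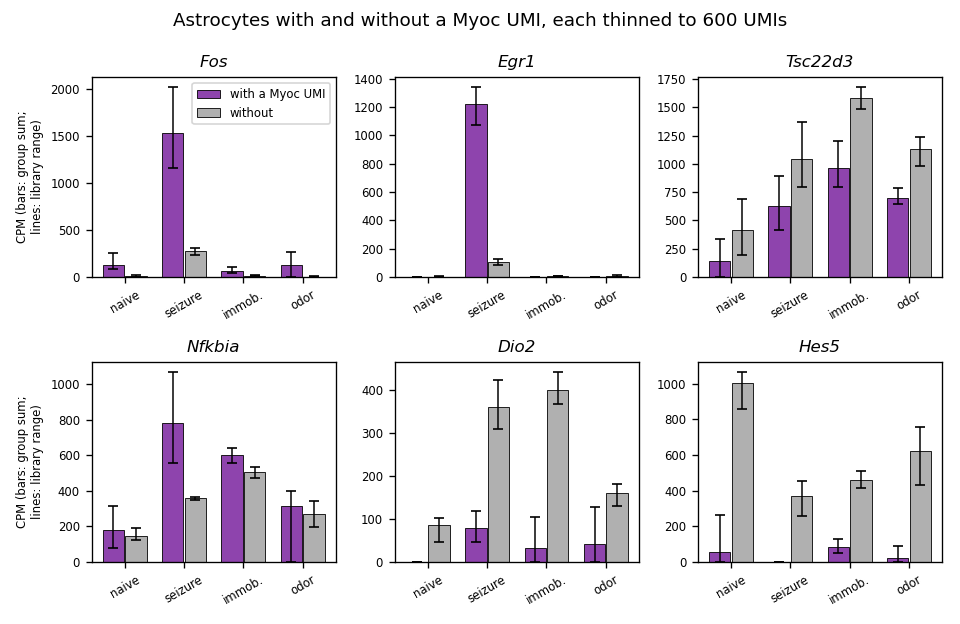
Level of 6 response genes (CPM, bars from 0, summed over a group's libraries, lines from the lowest to the highest library) in astrocytes with and without a Myoc UMI, by group ("immob." is immobilization), after reduction to 600 UMIs per cell. Fos and Egr1 are higher in cells with Myoc after seizure, and Dio2 and Hes5 are higher in cells without it in each group.

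A saline-injected library was set beside these values as a control for injection, with 1 library and no test. Cells of its table carry no class, so each was assigned to the class whose naive profile it matched best, and of the 797 astrocytes also present in that table through the seizure libraries 767 (96.2%) were assigned to astrocytes. In 551 assigned saline astrocytes Fos was at 19.7 CPM (20 UMIs, 95% exact Poisson interval 12.1 to 30.5), Egr1 at 10.9 CPM, Hes5 at 1001 CPM, Dio2 at 97.7 CPM and Nfkbia at 177 CPM. Fos, Hes5, Dio2 and Nfkbia lay within the naive range of the first table. Per1 lay above that range at 59.2 CPM, and its interval of 45.2 to 76.2 (60 UMIs) did not reach the naive maximum of 39.3. Egr1 and Mfsd2a (180 CPM) also lay above it, but their intervals of 5.42 to 19.4 (11 UMIs) and 155 to 208 (182 UMIs) reached into the naive range. These intervals cover counting error only.

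The conventional dissociation gave other levels. In 437 assigned astrocytes of the conventional saline library Fos was at 989 CPM (633 UMIs, interval 914 to 1069), Egr1 at 294 CPM and Junb at 227 CPM. In 292 of the conventional seizure library Fos was at 159 CPM (81 UMIs, interval 126 to 197), Egr1 at 54.9 CPM and Junb at 66.6 CPM. Fos was thus lower in the seizure than in the saline library after conventional dissociation, whereas after Act-Seq the assigned seizure astrocytes stood at 394 and 413 CPM against 19.7 in saline. Hes5 was at 741 CPM in the conventional saline and 237 CPM in the conventional seizure library, and Dio2 at 192 and 321 CPM, the direction seen with Act-Seq. With 1 library each, method, library and animal cannot be told apart.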

How the data were processed

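Male C57BL/6J mouse medial amygdala cells were profiled by Drop-seq. The authors deposited tables of raw UMI counts per gene and cell, in which cell names carry library and class. Per the submitters' processing notes, bcl2fastq 2.17.1.14 and STAR 2.5.0a were used with mm10. Not given in the sources used here were the tool that counted UMIs, any use of strand, and the removal of cells or doublets. Reads of genes that overlap may therefore be mixed. No cell was removed here, and no doublet caller was run.

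UMIs of the astrocytes were summed per library (at least 10 cells). Tests used edgeR 4.0.16 in R 4.3.3 (TMM, filterByExpr, quasi-likelihood, Benjamini-Hochberg at 0.05), with 1 fit over 4 groups and no covariate. CPM are UMIs per 1000000 astrocyte UMIs of a library, with n = 5 naive, 2 seizure, 4 immobilization and 4 odor libraries. Class interactions had the library as a block. Shares were compared by exact permutation in Python 3.11.15 with scipy 1.17.1. Alternatives were DESeq2 1.42.0, no filter, age, a replicate block, libraries of at least 300 cells, fewer or more cells, reduced depth and each library left out. A floor of 3 counts over a group served for groups without a UMI.

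Named genes were, per comparison, the 12 largest rises and 12 largest falls among calls without overlap of libraries, and up to 4 called members of each list; the text gives the best supported. Members and lists were chosen with earlier results of these data known. On simulated counts with 200 changed genes among 7143, the fit recovered 74%, 94% and 98% of 2-fold rises after seizure, immobilization and odor, and 1, 8 and 11 unchanged genes were called. The changed genes were drawn only from genes with higher counts per library, so recovery of genes at a few CPM was not measured. For the interaction with mature oligodendrocytes after immobilization, simulated over 3562 genes, 66.7% of 2-fold rises and 27.6% of 2-fold falls were recovered, so 2-fold differences between classes could be missed. Gene positions are from GENCODE vM21. In the dissociation table barcodes did not match the counts (0 of 2900 shared cells by barcode, 2900 by counts), so cells were matched by their counts.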

Additional observations from a re-analysis of the deposited data

Results flagged for a closer look

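Several astrocyte libraries stood apart from the others of their group in a Dixon test at the 95% level, which flags about 1 group in 20 by chance. Of 110 groups of values tested, 12 did. Naive 1 held 141 CPM of Tmem212 and 716 CPM of summed ependymal markers, against 0 and at most 226 CPM in the other naive libraries. Tmem212 was also seen in 1 library each of immobilization (2.33 CPM, immobilization 2) and odor (22.5 CPM, odor 1), with 0 in the rest. A group with UMIs in only 1 library is flagged by construction, so the chance rate does not hold for the Tmem212 flags. Tsc22d3 was at 576 CPM in naive 2, above the next naive library at 313 CPM. Immobilization 4, with 50 astrocytes, was low in Mfsd2a (174 CPM, next 388) and summed microglia markers (161 CPM, next 274) and high in Fabp7 (1581 CPM, next 663). Immobilization 2 was low in Cyr61 (96.4 CPM, next 131) and high in Sox9 (625 CPM, next 563). Odor 2 was low in Cspg5 (571 CPM, next 620) and Gfap (499 CPM, next 639).

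The change against naive differed between astrocytes and mature oligodendrocytes in tested interactions for 5 genes named here. For Tsc22d3 the log2 difference was 1.58 after seizure (lost without seizure 2, adjusted p 0.989), 1.72 after immobilization and 1.21 after odor. For Rhob it was 1.21, 1.90 and 1.22, and the seizure value was lost without seizure 1 (adjusted p 0.141) or seizure 2 (adjusted p 0.733). For Phactr3 it was -1.24, -2.14 and -1.35, and the seizure value was lost without seizure 2 (-0.95, adjusted p 1). For Txnip it was 2.72 after seizure, lost without naive 3, seizure 1 or seizure 2 (adjusted p up to 0.401), and 2.95 after odor, kept without any 1 library. For Arl4d it was 5.12 after seizure and 5.42 after immobilization, values that are no bound because naive astrocytes had no UMI of it, and both were lost without naive 2 (adjusted p 0.373 and 0.0843). By DESeq2 none of the seizure values passed.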

How the results depend on the processing

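Gene counts moved more than directions. With DESeq2 the counts of called genes were 28 after seizure, 97 after immobilization, 14 between seizure and immobilization and 22 between seizure and odor, and for the interactions 0 (odor, precursors) and 0, 7 and 1 (seizure, immobilization and odor, mature oligodendrocytes). Without the filter on low counts they were 251 after immobilization, 151 after odor, 56 between seizure and immobilization, 12 between immobilization and odor and 54 between seizure and odor. With age as a covariate they were 104 after immobilization and, for the interactions, 3 and 3 (immobilization and odor, precursors) and 8 and 7 (mature oligodendrocytes). With every library reduced to the astrocyte UMIs of the smallest they were 12, 29 and 9 against naive, 3 between seizure and immobilization, 0 between immobilization and odor and 6 between seizure and odor, which fewer UMIs account for by construction. Without cells holding other markers 6 genes differed between immobilization and odor. With astrocyte-class cells of the neuron table kept 22 differed between seizure and odor. Among libraries of at least 300 cells the precursor interactions had 1, 2 and 2 genes, and the share after immobilization was 0.0751 percentage points above naive. Other causes were not tested.

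Leaving out 1 library in turn gave 23 to 52, 87 to 185 and 36 to 109 genes against naive, 6 to 31 between seizure and immobilization, 1 to 8 between immobilization and odor and 12 to 37 between seizure and odor. The interactions gave 0 to 2, 0 to 3 and 0 to 3 (precursors) and 2 to 11, 16 to 28 and 6 to 17 (mature oligodendrocytes). Share differences ranged from -5.65 to -0.818, -2.63 to 2.20 and -3.38 to 1.45 percentage points, the sign turning after immobilization without naive 2 (0.298), 4 (0.667) or 5 (2.20) or immobilization 1 (1.37) or 4 (0.436), and after odor without naive 5 (1.45). Median UMIs per astrocyte differed by -182 to -59.4, -186 to -11.5 and -388 to -156. Tmem212 and Ccdc153 after immobilization reversed without naive 1 (2.61 and 1.72) and ranged down to -7.59 and -5.66 without immobilization 2. Of the named-gene values with 1 library left out, 2346 kept their call, 319 lost it and those 2 reversed. Under DESeq2 121 named calls were kept and 50 lost, and with age as a covariate 144 and 34. With the astrocyte-class cells of the neuron table included 121 were kept and 32 lost, and without cells holding other markers 152 and 18. The replicate block kept 137 and lost 16, and reduction to the smallest library kept 33 and lost 44. Libraries of at least 300 cells kept 169 and lost 9, and no filter 177 and 1.

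Same-numbered libraries deviated together in 1 of 18 pairs (r above 0.1), so the numbers were not taken as pairs. With the replicate block 7 genes differed between immobilization and odor, and other counts stayed within 1.5 times. At 74620 UMIs, the smallest library holds 3 UMIs of a gene at 40.2 CPM, so lower genes rest on the other libraries.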
